A study of Mus musculus with 6 samples.

Results

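Collagens, the lysyl oxidases that crosslink them, the matrix metalloproteinases (MMPs) and ADAMTS proteases that cut the matrix, and the TIMP inhibitors were followed in mouse lung endothelial cells. Members were taken by symbol: names of the form Col, a number, a and a digit, Lox and Loxl1 to Loxl4, Mmp with a number, Timp1 to Timp4, and any name starting with Adamts. This gave 94 of the 23345 genes in the table. They were 8 basement membrane collagens, 11 fibrillar collagens, 24 other collagen chains, 5 lysyl oxidases, 17 MMPs, 4 TIMPs, 19 ADAMTS proteases and 5 ADAMTS-like genes. The last of the 94 was Col4a3bp, which matches the name pattern but encodes a ceramide transporter and was kept out of the collagen counts.

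The libraries came from C57BL/6JOlaHsd mice kept for 3 months on normal diet (ND, mice 1, 3 and 4) or high-fat diet (HFD, mice 2, 4 and 5). There were 3 libraries a diet, with 500 cells a library and a separate mouse number for each library within a diet. Mouse 4 of ND and mouse 4 of HFD were taken as different animals, since their diets differ. In both diets the lung cells were plated on fibronectin, collagen I and gelatin, selected with beads for ICAM-2 and against CD16/CD32, and plated again on collagen I before RNA was taken, so every library comes from cells that had been held on added matrix. Age and sex are not stated in the labels.

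Endothelial cells rest on a basement membrane whose backbone is a network of type IV collagen, with collagens XV and XVIII at its outer face. Fibrillar collagens I, III and V form the tensile fibres of the surrounding tissue and are mainly products of fibroblasts. Lysyl oxidases crosslink collagen and elastin outside the cell. MMPs and ADAMTS enzymes are zinc-dependent proteases that remodel this matrix, and TIMPs block many of them.

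Depth was 13752860 to 17194899 reads in the ND libraries and 18808208 to 27896648 in the HFD libraries, so every HFD library was deeper. All 12 endothelial markers were tested, and Pecam1, an adhesion molecule of endothelial junctions, had 17466 to 27793 normalized counts per library. ND 3 stood apart in epithelial transcripts, with 111406 summed normalized counts over 11 markers against 6001 to 22015 in the other libraries. Of the markers tested, 9 of 12 endothelial, 4 of 12 fibroblast, 3 of 13 mural, 2 of 11 epithelial, 1 of 6 macrophage and 0 of 6 lymphatic endothelial genes had a higher mean log2 level in HFD, and 0 in any of these lists passed the test. In these bulk libraries, fewer cells of a type and less RNA per cell cannot be told apart. Values below are the authors' normalized counts, which are reads scaled by a factor for each library, and a fold change is HFD minus ND on the log2(normalized count + 1) scale.

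The sequences shown first are those at the start sites of the type IV collagen genes, since these genes lie in head-to-head pairs and their levels are compared pair by pair later on. All come from RefSeq promoters of GRCm38.p6, in which 65 of the 94 members had an entry. Capitals mark GGGCGG or its complement CCGCCC, the GC box. CCAAT and TATAAA were searched on both strands too. The annotated first exons of Col4a1 and Col4a2 overlap by 22 bases on opposite strands, at chr8:11312805-11312826, shown on the Col4a1 strand. Col4a4 and Col4a3 start 71 bases apart, with the stretch between them at chr1:82586850-82586920, shown on the Col4a4 strand. The starts of Col4a6 and Col4a5 lie 1308 bases apart. Shown are the 250 bases before Col4a6 at chrX:141474077-141474326 on the minus strand and 216 bases before Col4a5 at chrX:141475169-141475384 on the plus strand.
Col4a1 and Col4a2 shared bases: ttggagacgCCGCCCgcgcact
Between Col4a4 and Col4a3: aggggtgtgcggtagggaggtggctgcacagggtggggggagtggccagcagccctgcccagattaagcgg
Before Col4a6: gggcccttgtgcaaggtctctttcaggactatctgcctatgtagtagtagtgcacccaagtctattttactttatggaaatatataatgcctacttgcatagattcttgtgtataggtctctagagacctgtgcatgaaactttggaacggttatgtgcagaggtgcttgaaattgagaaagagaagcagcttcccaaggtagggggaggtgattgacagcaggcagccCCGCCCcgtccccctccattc
Before Col4a5: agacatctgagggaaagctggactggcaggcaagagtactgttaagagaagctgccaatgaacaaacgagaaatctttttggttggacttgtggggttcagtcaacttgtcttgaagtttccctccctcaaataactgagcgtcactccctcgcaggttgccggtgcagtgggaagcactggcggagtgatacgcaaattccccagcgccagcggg

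The first exons shared by Col4a1 and Col4a2 held 1 GC box, which 4.09% of 32851 promoters hold in the same 22 positions. The stretch between Col4a4 and Col4a3 held 0, against 20.7% of promoters with a match in the same positions, and the stretch before Col4a6 held 1, against 32.7%. Before Col4a5 there was no GC box but 1 CCAAT, which 30.5% of promoters hold in those positions. Neither strand of any of the 4 stretches held TATAAA. The share of G and C was 72.7% at Col4a1 and Col4a2 and 69.0% between Col4a4 and Col4a3, above the medians of 54.5% and 54.9% of all promoters in the same positions. It was 47.6% before Col4a6 and 52.3% before Col4a5, close to the medians of 52.4% and 51.9%. A match is a description of these letters and not evidence of binding.

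Levels of the members differed widely. Per kilobase of exonic sequence, averaged over the 6 libraries, the members with the highest levels were Timp2 with 1191 normalized counts per kilobase, Adamts1 with 1159, Col4a1 with 615, Col4a2 with 589 and Timp3 with 329. Next among the matrix genes came Mmp15 with 84.8, Adamtsl5 with 74.2, Col4a3 with 55.5, Col4a4 with 53.1 and Mmp2 with 52.7. Col1a1, a chain of the main fibrillar collagen, had 18.6. Of the 94 members, 57 reached the mean of 10 normalized counts set for testing and 37 did not.

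No member differed between the diets past the threshold. Across the 15655 genes tested with limma, 0 had an adjusted p under 0.05 (0% of genes), and so did 0 of the 57 members, with 0.574 as their lowest adjusted value. Before adjustment 1 member, Col12a1, lower in HFD, was under 0.05, against 7.92% of all genes, of which 2.36% were lower and 5.56% higher in HFD. The other tools made 0 calls among the members too. At an unadjusted p under 0.05 there were 5 members in edgeR's quasi-likelihood test, 6 in DESeq2 and 1 in limma-voom. The share of all genes at that level was not counted for these tools, so no excess or lack can be read from these counts. DESeq2 called 1.74% of all genes, and gave no adjusted p for 15 of the members. ND and HFD values did not overlap for 3 members, or 5.26% of those tested, against 14.1% of all genes. All 3 were lower in HFD, a direction that held without overlap for 5.93% of all genes, and 0 were higher, against 8.12%. The share of members without overlap was thus below that of all genes. Of the 57, 28 had a positive and 29 a negative fold change, with a median log2 fold change of −0.03 beside 0.05 over all genes.

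**Figure D1:**
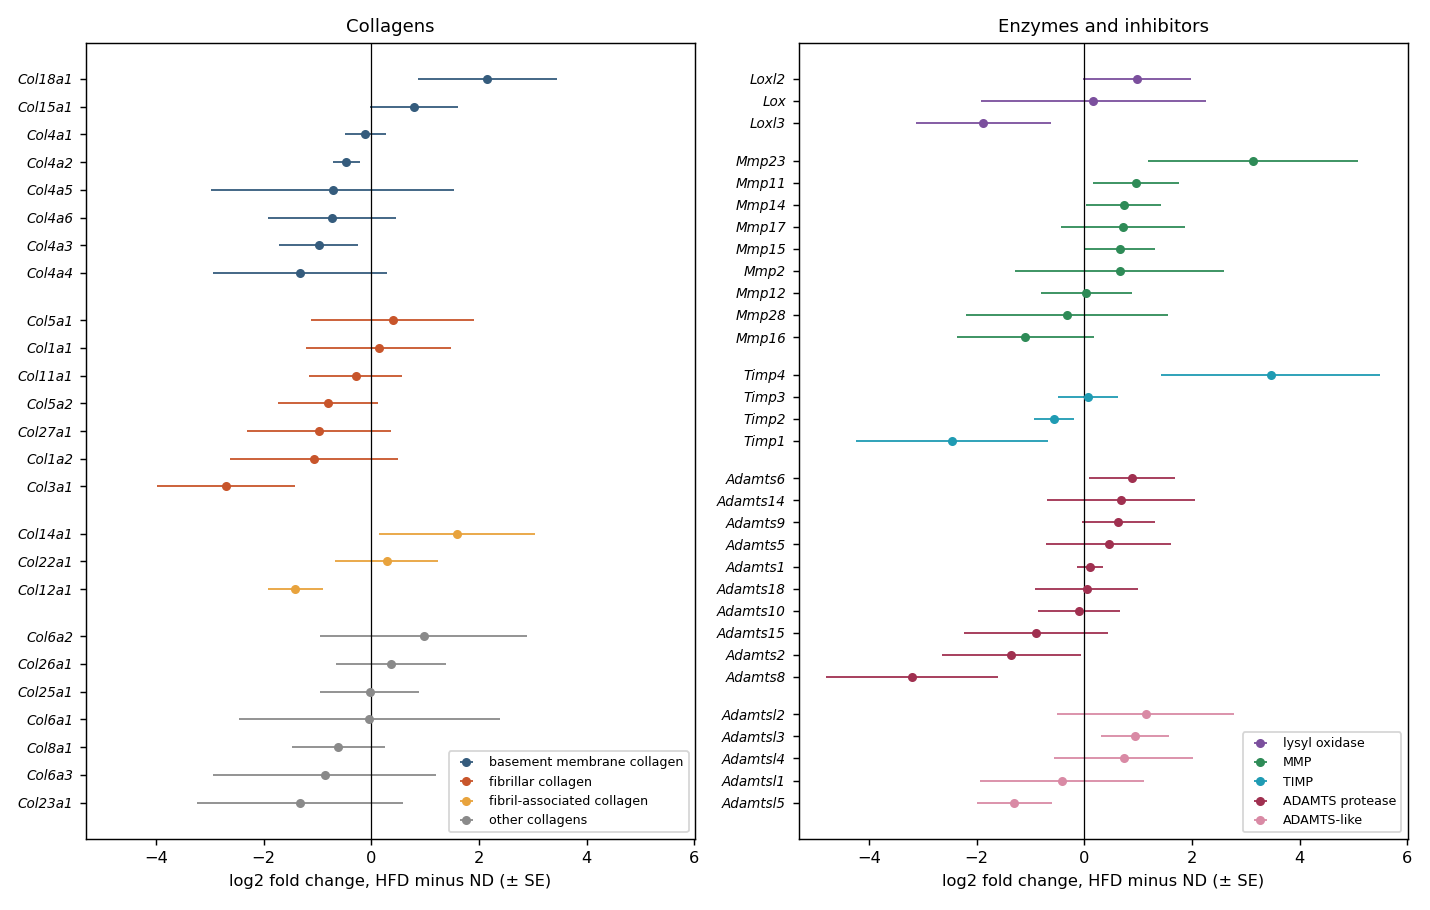
Log2 fold change (HFD minus ND, horizontal axis, log2 of normalized count + 1) of the 56 tested members other than Col4a3bp, with points for the estimate and bars for its standard error over 3 libraries a diet. Many bars cross 0, and the narrow ones belong to the abundant Col4a1, Col4a2, Timp2 and Adamts1.

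Basement membrane collagens made up most of the collagen counts in each library. Summed over the 8 genes they had 8175, 12192 and 12599 normalized counts for ND 1, ND 3 and ND 4, and 7903, 10013 and 8788 for HFD 2, HFD 4 and HFD 5. That was 75.2%, 74.4% and 88.1% of all collagen counts in the ND libraries and 72.2%, 89.1% and 93.0% in the HFD libraries. The ranges of the diets overlap on both scales. Of the 8 members, 6 had a lower and 2 a higher mean log2 level in HFD, with a median log2 fold change of −0.60 beside 0.05 over all genes. That median was 0.06 without ND 3, the library rich in epithelial transcripts, and −0.21 without ND 4.

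Col4a1 and Col4a2, which encode the chains of the ubiquitous type IV collagen, carried 59.3% to 83.0% of all collagen counts. Col4a1 had 3177, 4541 and 6567 normalized counts in ND 1, ND 3 and ND 4 and 4905, 5583 and 2749 in HFD 2, HFD 4 and HFD 5. The highest value was in ND 4 and the lowest in HFD 5, and the diets overlapped. Its means of 4762 ± 1706 in ND and 4412 ± 1480 in HFD (SD, n = 3) gave a log2 fold change of −0.11 ± 0.37 (SE), with a limma adjusted p of 0.964. The sign turned to 0.15 without ND 4 and 0.20 without HFD 5.

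Col4a2, the partner that joins Col4a1 in the same trimer, had all its HFD values under all its ND values. The values were 4423, 5179 and 3934 normalized counts in ND 1, ND 3 and ND 4 against 2497, 3741 and 3626 in HFD 2, HFD 4 and HFD 5. ND 4 and HFD 4, the nearest across the diets, differed by less than the spread within either diet. Means were 4512 ± 627 and 3288 ± 687 (SD, n = 3). The difference of −0.47 ± 0.25 (SE) on the log2 scale did not pass the limma test (adjusted p = 0.672). It ranged from −0.58 to −0.28 when each library was left out. The ratio of Col4a1 to Col4a2 counts, genes that share their first bases, was 0.718, 0.877 and 1.67 in the ND and 1.96, 1.49 and 0.758 in the HFD libraries, so the pair was not at a constant ratio in either diet.

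Col4a3, Col4a4 and Col4a5 encode the chains of a second type IV network, known from kidney and lung alveolar basement membranes. Col4a3 had 464, 931 and 588 normalized counts in the ND libraries and 247, 140.1 and 949.8 in HFD 2, HFD 4 and HFD 5. Col4a4 had 68.5, 948 and 1146 in the ND libraries and 18.4, 267 and 935 in the HFD libraries. Col4a5 had 2.36, 353 and 246 in the ND libraries and 52.4, 2.42 and 357 in the HFD libraries. ND 3, ND 4 and HFD 5 were the libraries with most of all 3 transcripts together, and they belong to both diets. The log2 fold changes were −0.98 ± 0.74 for Col4a3, −1.32 ± 1.62 for Col4a4 and −0.72 ± 2.26 for Col4a5 (SE), with limma adjusted p of 0.765, 0.875 and 0.961. For Col4a4 the value was 0.24 without HFD 2, and for Col4a5 it was 0.48 without ND 3 and 1.06 without HFD 4.

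The same 3 libraries had the highest summed level of epithelial markers. The 3 transcripts together had 535, 2232 and 1980.3 normalized counts in ND 1, ND 3 and ND 4 and 318, 409 and 2242 in HFD 2, HFD 4 and HFD 5. The 11 epithelial markers summed to 6001, 111406 and 11679.6 in the ND libraries and to 6427, 7904 and 22015 in the HFD libraries. Ager, a receptor of the flat alveolar epithelium, was at 23563 in ND 3, at 16933 in HFD 5 and at 5253 in ND 4, against 1525 to 3568 normalized counts elsewhere. The sum rests mainly on Sftpc and Ager in ND 3 and on Ager and Cldn18 in the other libraries. Sftpc was at 70918 in ND 3 but at 798 in ND 4 and 447 in HFD 5, below its 959 in ND 1 and 1195 in HFD 4. The general epithelial markers did not follow the sum. Epcam was highest in ND 1, at 65.0, with 11.8 in ND 3, 4.75 in ND 4 and 37.4 in HFD 5. Cdh1 was at 394 in ND 1 and 432 in ND 3 but at 104.5 in ND 4 and 97.9 in HFD 5, its lowest values. Sftpb and Lamp3, markers of alveolar type II cells, had 0 reads in at least 1 library. The part of epithelial RNA in these levels was not tested.

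Col4a3 and Col4a4 start 71 bases apart but did not keep a fixed ratio. It was 6.78 in ND 1 and 13.4 in HFD 2, and 0.513 to 1.02 in the other libraries. Col4a6, which shares a start region with Col4a5, was near the limit of testing, at 5.91, 54.5 and 7.13 normalized counts in the ND and 3.88, 6.44 and 18.0 in the HFD libraries. Its log2 fold change was −0.72 ± 1.19 (SE, limma adjusted p = 0.908) and 0.24 without ND 3.

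Col15a1 and Col18a1 encode the collagens of the outer basement membrane that carry the endostatin-like C-terminal domains. Both had a higher mean in HFD. Col15a1 had 28.3, 73.8 and 106 normalized counts in the ND and 143, 179 and 46.1 in the HFD libraries. HFD 5 lay below ND 3 and ND 4, and the log2 fold change was 0.79 ± 0.83 (SE, limma adjusted p = 0.847). Col18a1 had 5.91, 111 and 4.75 in the ND and 36.9, 94.2 and 107 in the HFD libraries. ND 3 was the highest of all, so the diets overlapped, and the difference was 2.15 ± 1.29 (limma adjusted p = 0.710) and 3.54 without ND 3.

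**Figure D2:**
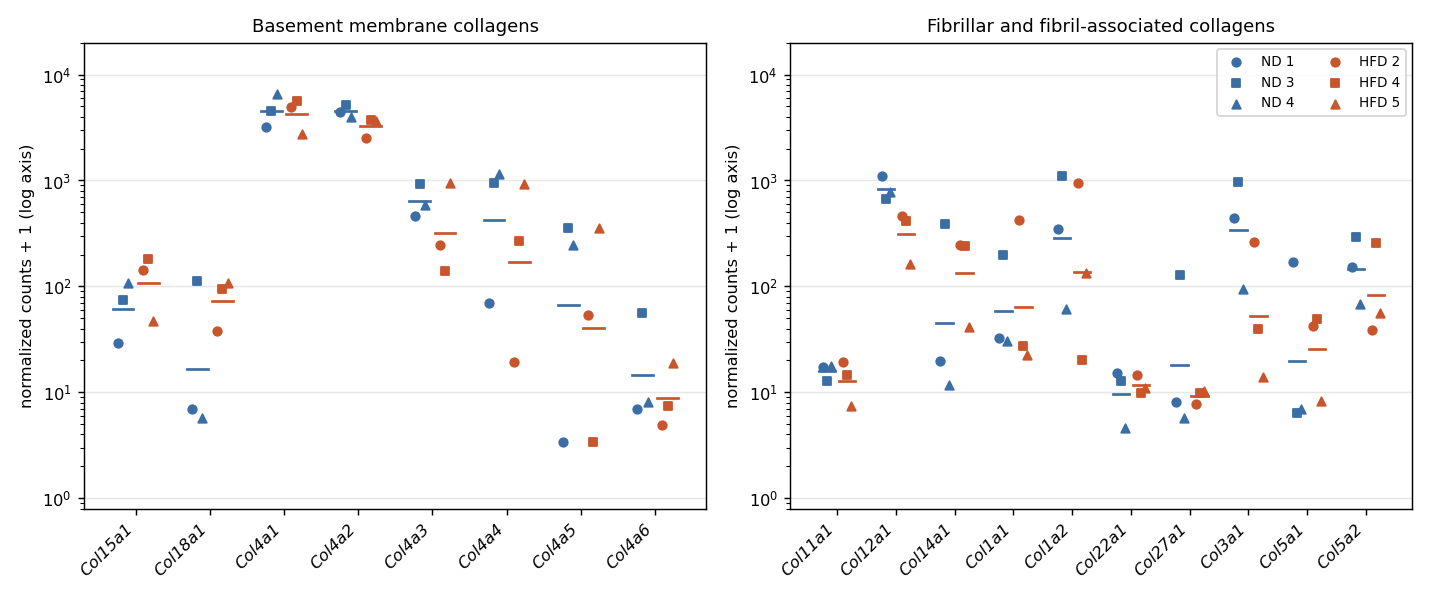
Normalized counts + 1 (log axis) of tested collagens in each library, in blue for ND and orange for HFD with a marker shape per mouse, and a line for the geometric mean of each diet. Col4a1 and Col4a2 lie between 2497 and 6567 in all libraries, while Col4a4, Col4a5, Col1a2 and Col3a1 are spread over more than a power of 10.

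Fibrillar collagens were a small and uneven share. Of the 11 members, 7 were tested, 5 with a lower and 2 with a higher mean log2 level in HFD and 0 past the threshold. The median of their log2 fold changes was −0.81, beside 0.05 over all genes, and moved to −0.30 without ND 3 and to −1.36 without ND 4. Summed, they had 1188, 2727 and 310.05 normalized counts in ND 1, ND 3 and ND 4 and 1745, 445 and 266 in HFD 2, HFD 4 and HFD 5. That was 10.9%, 16.6% and 2.17% of collagen counts in the ND and 15.9%, 3.96% and 2.82% in the HFD libraries. Each diet had libraries with a high and with a low share.

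Col3a1, the chain of collagen III, had the largest negative fold change of the tested collagens. It had 438, 968 and 92.7 normalized counts in the ND and 264, 38.7 and 12.96 in the HFD libraries. HFD 2 lay above ND 4, so the diets overlapped. Means were 499 ± 441 and 105 ± 138 (SD, n = 3), and the log2 fold change of −2.69 ± 1.28 (SE) did not pass (limma adjusted p = 0.650). It ranged from −3.86 to −1.74 when each library was left out.

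Col1a1 and Col1a2 encode the chains of collagen I, the material the cells were plated on, and their transcripts are mouse RNA and not the added protein. Col1a1 had 31.9, 198 and 29.7 normalized counts in the ND and 423, 26.6 and 21.6 in the HFD libraries, with a log2 fold change of 0.13 ± 1.35 (SE, limma adjusted p = 0.990). ND 3 and HFD 2 were the high libraries. Col1a2 had 344, 1109.7 and 60.6 in the ND and 939, 19.3 and 134 in the HFD libraries, with a log2 fold change of −1.06 ± 1.56 (adjusted p = 0.894). ND 3 and HFD 2 were again highest, and its sign turned to 0.31 without HFD 4.

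Collagen V chains, which set fibril diameter, had no shared pattern. Col5a1 had 170.1, 5.35 and 5.94 normalized counts in the ND and 41.8, 48.3 and 7.20 in the HFD libraries. Col5a2 had 152, 292 and 66.5 in the ND and 37.9, 255 and 55.4 in the HFD libraries. Their log2 fold changes were 0.40 ± 1.52 and −0.81 ± 0.93 (SE), with limma adjusted p of 0.970 and 0.864. Col27a1, a fibrillar collagen of cartilage, had 7.09, 128 and 4.75 in the ND and 6.80, 8.86 and 9.36 in the HFD libraries (−0.97 ± 1.35, adjusted p = 0.890). Col11a1, likewise known from cartilage, had 16.5, 11.8 and 16.6 in the ND and 18.4, 13.7 and 6.48 in the HFD libraries (−0.29 ± 0.87, adjusted p = 0.958). The other fibrillar genes stayed below the level for testing, Col2a1 at 3.21 to 16.5, Col5a3 at 2.38 to 7.09, Col11a2 at 2.36 to 17.8 and Col24a1 at 0 to 5.04.

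The summed level of fibroblast markers was high where that of fibrillar collagens was high, though single markers differed. The 12 markers, none of them a collagen, summed to 3713, 8132 and 1671 normalized counts in the ND and to 5456, 2207 and 2311 in the HFD libraries. ND 3, HFD 2 and ND 1 were the highest for both sums, in that order. Dcn, a small proteoglycan of fibroblasts, was at 3286 in ND 3 and 898 in HFD 2 against 1.61 in HFD 4. Other markers did not follow the sums. Inmt was highest in ND 1, at 2527, and made up most of the sum there. Lum had 7.48 in ND 3 against 501 in HFD 2, and Npnt had 520 in HFD 5 against 188 in HFD 2. Pdgfra had 16.5 in HFD 2 and 56.9 in HFD 5. Clec3b was at 0 reads in ND 4, HFD 4 and HFD 5 and Serpinf1 in ND 4 and HFD 4. Mural markers, of pericytes and smooth muscle, summed to 1832 to 6795 over 13 genes in ND and 1136 to 2055 in HFD, with Acta2 at 0 reads in ND 4 and HFD 2. The part of fibroblast or mural RNA in the fibrillar collagens was not tested.

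**Figure D3:**
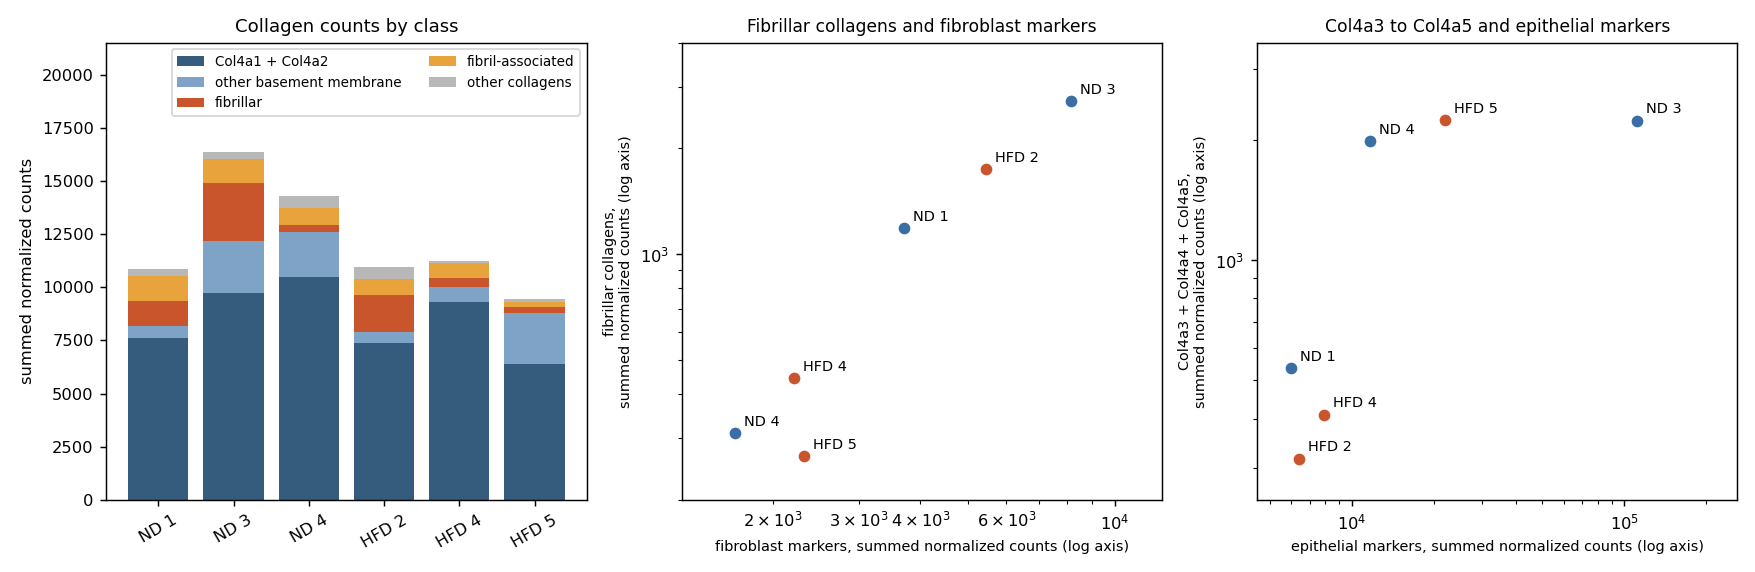
Left, summed normalized counts of collagen classes in each library, stacked from 0. Middle and right, summed normalized counts (log axes) of fibrillar collagens against fibroblast markers and of Col4a3, Col4a4 and Col4a5 against epithelial markers, a point per library, blue for ND and orange for HFD. Both diets occur at the high and the low end of each scatter.

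Col12a1 encodes a fibril-associated collagen that lies along collagen I fibrils, and all its HFD values lay under all its ND values. It had 1113, 672 and 773 normalized counts in ND 1, ND 3 and ND 4 against 465, 409 and 161 in HFD 2, HFD 4 and HFD 5. The diets did not overlap. Means were 853 ± 231 and 345 ± 162 (SD, n = 3), and the log2 fold change was −1.41 ± 0.52 (SE). It had the smallest p of the members (limma unadjusted p = 0.0288) and did not pass over all genes (adjusted p = 0.574). The fold change stayed negative without each library in turn, from −1.70 without HFD 2 to −0.93 without HFD 5. Beside it, the fibroblast marker sums overlapped between the diets, and the mural marker sums were 4850.4, 6795 and 1832 in the ND and 1136, 2055 and 1633 in the HFD libraries, with HFD 4 above ND 4. Of the 13 mural markers, only 2, Rgs5 and Notch3, had all HFD values under all ND values. That is 15.4% of the list, close to the 14.1% of all genes without overlap in either direction and above the 5.93% that were lower. The mean log2 level of 10 of the 13 was lower in HFD, and that of 3, Pdgfrb, Myh11 and Cspg4, was higher. The middle one of the 13 log2 fold changes was −0.76. Cnn1 and Actg2 had the most negative ones, −4.14 ± 1.65 and −4.94 ± 1.90 (SE), with overlapping diets. They were the 2 with a limma unadjusted p under 0.05 (0.0401 and 0.0348), and neither passed (adjusted p = 0.592 and 0.581). The part of fibroblast or mural RNA in the Col12a1 difference was not tested. Col12a1 lies on chromosome 9 from 79598991 to 79718831 in GRCm38 and no other gene shares its exonic bases.

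The other fibril-associated chains were fewer. Col14a1 had 18.9, 390.2 and 10.7 normalized counts in the ND and 248, 238 and 40.3 in the HFD libraries, with a log2 fold change of 1.58 ± 1.45 (SE, limma adjusted p = 0.816). ND 3 was the highest and the diets overlapped. Col22a1 had 3.56 to 14.2 in all libraries (0.28 ± 0.95, adjusted p = 0.964), and the remaining 5 chains of the class were below the level for testing.

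Chains of collagen VI, which forms beaded filaments around cells, were high in 2 or 3 libraries each and near 0 in the others. Col6a1 reached 102 in ND 3 and 297 normalized counts in HFD 2, with 0 to 3.56 in the others. Col6a2 had 168 in ND 3, 59.2 in HFD 2 and 69.1 in HFD 5 against 2.36 to 2.42 elsewhere. Col6a3 had 226 in ND 1 and 107 in HFD 2 against 1.44 to 4.75 elsewhere. HFD 2 was the only library in which all 3 were above 50 normalized counts. The transmembrane Col23a1 had 481 normalized counts in ND 4 and 2.42 to 15.8 elsewhere, and Col25a1, likewise a transmembrane chain, had 11.9 to 63.8. Col8a1, a network-forming chain of vessel walls, had 11.8 to 17.8 in ND and 6.48 to 12.1 in HFD (−0.61 ± 0.87, SE, limma adjusted p = 0.891). Col26a1 had 4.72 to 37.0.

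Among the crosslinking enzymes, Lox was abundant in 1 library. It had 5.91, 79.1 and 7.13 normalized counts in the ND and 449.6, 4.83 and 1.44 in the HFD libraries, so that HFD 2 held 82.0% of its counts. The log2 fold change was 0.17 ± 2.09 (SE, limma adjusted p = 0.992) and −2.13 without HFD 2. Loxl1, which acts mainly on elastin, was also highest in HFD 2, at 0, 2.14 and 0 in the ND and 50.5, 1.61 and 0 in the HFD libraries, and was below the level for testing. HFD 2 and ND 3, the libraries highest for Lox, were also the highest for Col1a1 and Col1a2.

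Loxl2, which crosslinks type IV collagen, had a more even level. It had 17.7, 11.8 and 79.6 normalized counts in the ND and 57.3, 101 and 23.8 in the HFD libraries (log2 fold change 0.98 ± 1.00, SE, limma adjusted p = 0.843). Loxl3 had 20.1, 17.1 and 8.32 in the ND and 3.88, 13.7 and 0 in the HFD libraries. A count of 0 in HFD 5 allows up to 2.16 normalized counts, for counting error only. The fold change of Loxl3 was −1.88 ± 1.25 (adjusted p = 0.740), and HFD 4 lay above ND 4. Loxl4 was below the level for testing, at 3.54, 6.41 and 19.01 in the ND and 0, 2.42 and 2.88 in the HFD libraries.

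MMPs were low. Of 17 members 9 were tested, 7 with a higher and 2 with a lower mean log2 level in HFD, a median log2 fold change of 0.67 and 0 past the threshold. None of the 9 was without overlap by itself, but the sum over all 17 was, at 457, 866 and 978 normalized counts in the ND and 1191, 1028 and 1292 in the HFD libraries. The sum of the 11 MMPs outside the 6 classed as membrane-type was likewise separated, at 262, 220.2 and 152 against 533, 396 and 302. That of the 6 overlapped. The 11 include Mmp23, itself anchored to the membrane, with 98.8% of its 243 HFD reads in HFD 5. Without Mmp23, HFD 5 falls below all ND values of this sum, so its separation rests on that gene. These sums are descriptions with no test, and they rest on the few genes given next. Mmp15, a membrane-type enzyme, had 120.5, 464 and 601 normalized counts in the ND and 501, 439.7 and 619 in the HFD libraries. ND 1 stood below the other 5, and the log2 fold change of 0.67 ± 0.65 (SE, limma adjusted p = 0.828) was −0.037 without it. Mmp14, the membrane-type collagenase that also activates pro-MMP2, had 63.8, 145 and 109 in the ND and 131, 99.9 and 357 in the HFD libraries. HFD 5 was the highest and the diets overlapped (0.73 ± 0.69, adjusted p = 0.823, and 0.19 without HFD 5).

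Mmp2, gelatinase A, which cuts type IV collagen and denatured collagen, was present in 4 libraries and nearly absent in 2. It had 223, 119 and 5.94 normalized counts in the ND and 439, 275 and 5.04 in the HFD libraries. ND 4 and HFD 5 were the low libraries, 1 of each diet. The log2 fold change of 0.66 ± 1.95 (SE, limma adjusted p = 0.958) became 2.61 without HFD 5 and −0.86 without ND 4. Mmp9, gelatinase B, had 1.18 to 3.56 normalized counts, and Mmp8, the neutrophil collagenase, 0.720 to 3.56. Csf3r, a receptor of neutrophils, had 0.720 to 8.05 in the same libraries, and Camp 0 to 3.54. The other neutrophil markers of the table went opposite ways, with Retnlg at 0 reads in all ND libraries and at 0.971, 62.8 and 40.3 in the HFD libraries, and Ltf at 3169 to 3706 in ND and 1629.5 to 3095 in HFD. Ltf carried nearly all of the summed level of the list, which was 3176 to 3715 in ND and 1671 to 3103 in HFD. Their part in the MMP levels was not tested.

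Mmp11, stromelysin 3, had 14.2, 60.9 and 32.1 normalized counts in the ND and 57.3, 50.7 and 74.9 in the HFD libraries (log2 fold change 0.96 ± 0.79, SE, limma adjusted p = 0.790). ND 3 lay within the HFD values. Mmp12, macrophage elastase, had 9.36 to 24.2 in all libraries, beside macrophage marker sums over 6 genes of 527 to 6558 in ND and 158 to 389.6 in HFD. The 6558 is that of ND 3, where Lyz2, also made by alveolar type II cells, had 6388, and Ptprc, the pan-leukocyte marker, was level at 11.8 to 17.1 in all libraries. The part of macrophage RNA was not tested. Mmp17, anchored to the membrane by a lipid, had 76.5 in HFD 4 and 4.72 to 21.4 elsewhere. Mmp16 had 89.1 in ND 4 and 3.54 to 10.7 elsewhere, and Mmp28, epilysin, had 0 to 71.3. Mmp23 had 0 reads in all 3 ND libraries and 243 reads over the HFD libraries, of which HFD 5 held 98.8%. Against a floor of 3 reads over the ND group this was at least 58.1-fold higher in HFD, a ratio set by 1 library.

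Timp2 and Timp3 were among the most abundant members. Timp2, which binds MMP2 and MMP14, had 4495, 6934 and 4872 normalized counts in the ND and 3919, 5425 and 2198 in the HFD libraries. HFD 5 was the lowest and ND 3 the highest, and HFD 4 lay among the ND values. Means were 5434 ± 1313 and 3847 ± 1614 (SD, n = 3), with a log2 fold change of −0.57 ± 0.37 (SE, limma adjusted p = 0.732) that was −0.21 without HFD 5. Timp3, which stays bound to the matrix, had 1029, 3241 and 4012 in the ND and 1653, 2877 and 3275 in the HFD libraries (0.07 ± 0.55, adjusted p = 0.986). ND 1 was the lowest and ND 4 the highest, so one diet spanned the other. Other genes overlap 21.3% of the exonic bases of Timp3, so its reads may include theirs.

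Timp1 and Timp4 were seen in few libraries. Timp1, an inhibitor known to be induced in inflamed tissue, reached 83.4 normalized counts in ND 3, with 2.38 for ND 4, 0.720 for HFD 5 and 0 elsewhere. The ND to HFD ratio of its reads, 80 against 1, was 112 (exact 95% interval for counting, 19.5 to 4462), and 97.5% of the ND reads came from ND 3. Timp4, the inhibitor of most restricted expression, had 189 in HFD 4 and 79.9 in HFD 5 against 0 in HFD 2 and 0 to 4.28 in ND. Its log2 fold change was 3.46 ± 2.03 (SE, limma adjusted p = 0.701). Here HFD 2 lay among the ND values.

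Adamts1, which cleaves the proteoglycans versican and aggrecan, had the steadiest level of all tested members. It had 5756, 5865 and 5900.4 normalized counts in the ND and 5038, 8598 and 5725 in the HFD libraries. Its highest library was 1.71 times its lowest, and HFD 4 stood above the other 5. Means were 5841 ± 75.1 and 6454 ± 1889 (SD, n = 3), and the log2 fold change was 0.11 ± 0.24 (SE, limma adjusted p = 0.944). It was −0.12 without HFD 4 and −0.011 with equal column totals. The 250 bases before its start, at chr16:85803114-85803363 on the minus strand, are shown because it was the most abundant protease.
Before Adamts1: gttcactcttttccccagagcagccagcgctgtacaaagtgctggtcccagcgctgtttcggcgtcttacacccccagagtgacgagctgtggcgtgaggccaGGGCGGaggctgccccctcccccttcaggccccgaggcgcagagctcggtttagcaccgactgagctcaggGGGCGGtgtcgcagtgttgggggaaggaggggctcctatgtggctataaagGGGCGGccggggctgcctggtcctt
This stretch held 3 GC boxes, in capitals, where 32.7% of promoters hold at least 1 in the same positions, and 1 TATAAA, where 12.4% do.

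Other ADAMTS proteases were lower. Adamts9, a relative that also cuts versican, had 309, 190.3 and 354 normalized counts in the ND and 1123, 308 and 225 in the HFD libraries, with HFD 2 high and the others overlapping (log2 fold change 0.63 ± 0.68, SE, limma adjusted p = 0.852, and −0.064 without HFD 2). Adamts10, which acts on fibrillin microfibrils, had 89.3 to 519 and Adamts6 33.1 to 227. Adamts8 had 3.54, 1.07 and 82.0 in the ND libraries and 0 reads in all HFD libraries. That was at least 33.9-fold lower in HFD against a floor of 3 reads over the group, with 94.5% of the ND reads in ND 4, and its log2 fold change did not pass (adjusted p = 0.654). Adamts2, which removes the amino-terminal propeptide of fibrillar procollagens, had 72.7 in ND 3 and 3.22 to 5.94 elsewhere. Adamts5, an aggrecanase, had 135 in HFD 5 and 7.25 to 35.4 elsewhere. Adamts4, the other main aggrecanase, and Adamts13, which cuts von Willebrand factor, were below the level for testing, at no more than 20.2 and 12.6 in any library.

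ADAMTS-like proteins lack the protease domain and bind to matrix microfibrils. All 5 were tested and 0 passed. Adamtsl5 had 199.6, 894 and 439.5 normalized counts in the ND and 200.03, 272 and 95.8 in the HFD libraries, with ND 1 among the HFD values (log2 fold change −1.30 ± 0.70, SE, limma adjusted p = 0.675). Adamtsl3 had 65.0, 98.4 and 195 in the ND and 227, 134.5 and 297 in the HFD libraries (0.95 ± 0.64, adjusted p = 0.740), with ND 4 above HFD 4. Adamtsl4 ranged from 13.1 to 295, Adamtsl1 from 6.80 to 214 and Adamtsl2 from 3.22 to 128, each with high libraries in both diets.

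**Figure D4:**
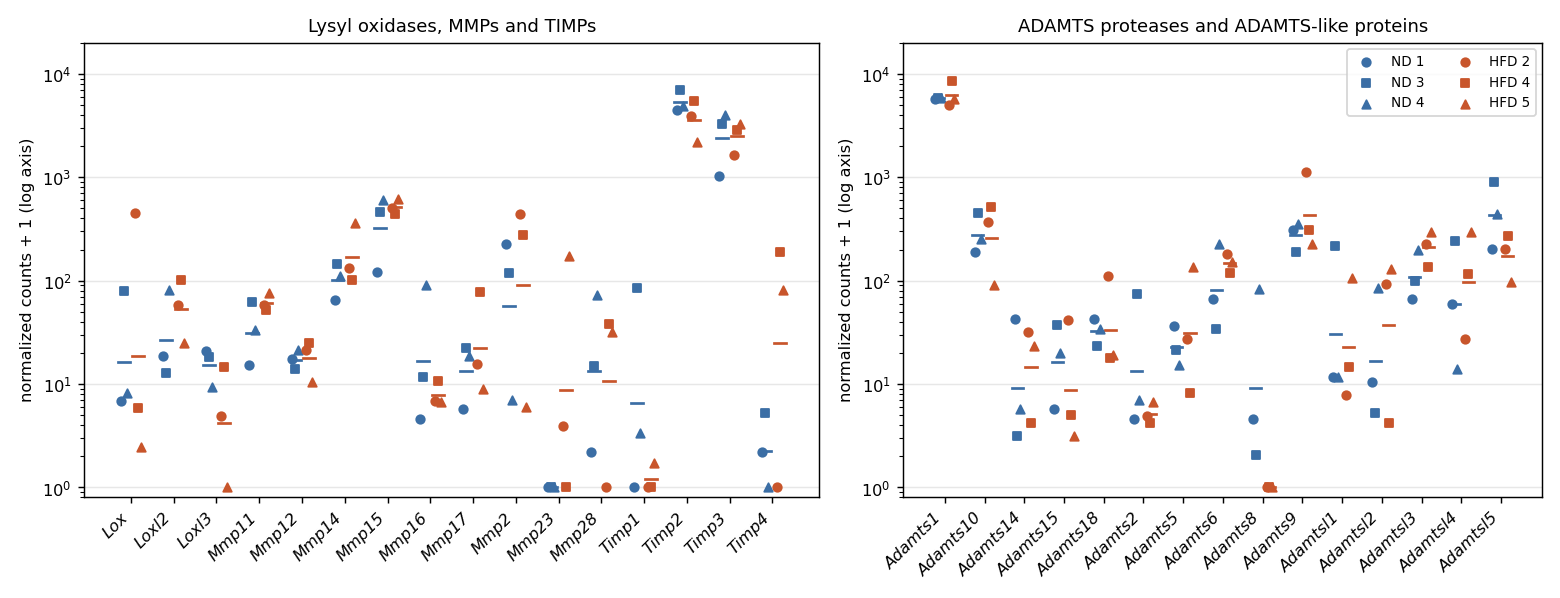
Normalized counts + 1 (log axis) of tested lysyl oxidases, MMPs, TIMPs, ADAMTS proteases and ADAMTS-like genes in each library, blue for ND and orange for HFD with a marker shape per mouse, and a line for the geometric mean of each diet. Adamts1, Timp2 and Timp3 lie above 1000 in all libraries, and Lox, Timp1, Timp4, Mmp23 and Adamts8 are high in 1 or 2 libraries.

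Spread between libraries depended on the level. The 5 members whose mean was 1000 normalized counts or more, Adamts1, Col4a1, Col4a2, Timp2 and Timp3, had a median range of 1.26 log2 units from the lowest to the highest library, beside 1.17 for all 3535 genes of that level. The 28 members with means from 50 to 1000 had a median range of 4.34, beside 2.70 for 7980 genes. The 24 members with means under 50 had 3.76, beside 4.43 for 4140 genes. In 19 tested members, or 33.3%, 1 library held over 50% of the normalized counts, which was so in 16.5% of all genes tested. ND 3 was that library for 7 of the 19, ND 4 and HFD 2 for 3 each, and ND 1, HFD 4 and HFD 5 for 2 each.

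The 37 members below the level for testing reached at most 50.5 normalized counts in any library, and 30 of them stayed under 10 in all libraries. Among the 30 were Col7a1 and Col17a1, known from epithelial anchoring, Col10a1 of growth cartilage, the collagen IX chains Col9a1 and Col9a2, Mmp8, Mmp9, Mmp10 and Mmp13. Col9a3 had 31.0 in HFD 5.

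Genes that make, sense or regulate this matrix were read from the same fit. Of 26 tested genes for collagen modification and secretion, 17 had a higher and 9 a lower mean log2 level in HFD, with 0 past the threshold, and a median log2 fold change of 0.35. Of these, 4 did not overlap between the diets, all higher in HFD, which is 15.4% of the list, close to the 14.1% of all genes without overlap in either direction and above the 8.12% that were higher. P3h4, a partner of the lysyl hydroxylation complex of the endoplasmic reticulum, had 12.99, 4.28 and 16.6 normalized counts in the ND and 207, 242 and 180.02 in the HFD libraries (log2 fold change 4.26 ± 0.75, SE, limma adjusted p = 0.305). Every HFD value was above every ND value. Plod3, a lysyl hydroxylase that also glycosylates collagen, was likewise separated, with 46.1, 258 and 295 in the ND and 379.7, 537 and 572 in the HFD libraries (1.68 ± 0.77, adjusted p = 0.644). Pdia3, a disulfide isomerase, had a log2 fold change of 1.08 ± 0.23 without overlap (adjusted p = 0.408). Fkbp14 had one of 2.91 ± 1.32 with overlapping diets (adjusted p = 0.642). Serpinh1, the collagen chaperone HSP47, had 0.97 ± 0.48 with overlapping diets (adjusted p = 0.654).

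Of 20 tested genes of protease activation, inhibition and collagen binding, 11 were higher and 9 lower in mean log2 level, 0 past the threshold, with a median of 0.09. The diets did not overlap for 4 of them (20%), 3 higher and 1 lower in HFD, beside 14.1% of all genes. Plat, tissue plasminogen activator, had 720.4, 1152 and 593 normalized counts in the ND and 3351, 3764 and 7024 in the HFD libraries (log2 fold change 2.50 ± 0.40, SE, limma adjusted p = 0.304). Plaur, the urokinase receptor, had 0.75 ± 0.21 (adjusted p = 0.497), also with no overlap. Ddr1 and Ddr2, receptor kinases that bind collagen, had −2.95 ± 1.35 and 2.29 ± 1.13 (adjusted p = 0.644 and 0.654), both with overlapping diets. Of 25 tested other basement membrane and elastic fibre components, 14 were higher and 11 lower, 0 past the threshold, with a median of 0.07. The diets did not overlap for 5 of the 25 (20%), 3 higher and 2 lower in HFD, beside the same 14.1% of all genes. Sparcl1, a matricellular protein, had 1.41 ± 0.28 (adjusted p = 0.346) and Fn1, fibronectin, 1.95 ± 0.62 (0.542), both without overlap and higher in HFD. Emilin1, an elastic fibre protein, had −1.39 ± 0.47 (0.561) and Ltbp2 −4.12 ± 1.53 (0.574), both without overlap and lower in HFD.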

How the data were processed

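RNA of 6 lung endothelial libraries was measured by oligo(dT)-primed, template-switching, PCR-amplified RNA sequencing, per the labels' protocols, which mention no molecular identifiers. Counting intervals and limits therefore cover counting error only. Per the submitters' processing notes, the tools were HTSeq 0.6.1, SAMtools 0.1.19, TopHat2 2.0.10 with Bowtie 1.0.0 listed beside it, DESeq2, cutadapt and FastQC 0.11.7, and the build was GRCm38, with no role or order named. No annotation or strand setting is named in the labels, so reads of overlapping genes may be mixed. In the 1 table deposited by the authors, the values are a normalized signal, gene counts scaled by 1 factor a library, as read from the values, since DESeq2 is named in the submitters' processing notes without its role. Every value was a whole multiple of 1 read within 1e-06 (100% of values), so whole reads were recovered. There were 0 unmatched columns. Nothing in the labels says more on replicates than separate mice.

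Genes with a mean of at least 10 were tested as log2(value + 1), HFD minus ND, two-sided, with limma 3.58.1 (R 4.3.3), an intensity trend, no covariates and Benjamini-Hochberg adjustment over all genes at 0.05. Recovered reads were tested with edgeR 4.0.16, DESeq2 1.42.0 and limma-voom on the same genes. The tests were checked on counts simulated with 1 dispersion of 0.05 for all genes, a smaller spread than these libraries have. That check does not show how the tests perform on these data. Members, gene lists, tests and naming rule were chosen with earlier results of these data known. By that rule any member may be named, and values in every library are given for tested basement membrane and fibrillar collagens, lysyl oxidases, TIMPs, a few proteases, and members without overlap or with an unadjusted p under 0.05, and of other lists up to 4 genes of smallest p. Serpinh1 was chosen after its values were seen. Other alternatives were pseudocounts of 0.5 and 5, minimum means of 1 and 50 or none, TMM scaling, equal column totals and leaving out each library. Gene positions and exonic lengths are from GENCODE M21 on GRCm38, in which all 94 members matched 1 gene by symbol.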

Additional observations from a re-analysis of the deposited data

How the results depend on the processing

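Under all 16 alternatives 0 members passed an adjusted p under 0.05, and so did 0 of all genes except with DESeq2, which called 272 genes and no member. Members without overlap numbered 3. The count was 2 at a mean of at least 50, 7 at a mean of at least 1 and 7 without a filter. It was 7 to 11 when 1 library was left out, where fewer libraries are compared and separation is easier. The shares of all genes without overlap were not counted under these settings, so these counts have no background beside them. The median log2 fold change of the basement membrane collagens (−0.60) ranged from −0.91 to 0.06 with 1 library left out and was positive only without ND 3. That of the fibrillar collagens (−0.81) ranged from −1.36 to −0.30, and with a minimum mean of 1 or no filter was −0.31, with more genes tested. Of the 57 members, 24 kept their sign under all alternatives, 33 did not, and 10 turned in a setting other than leaving out a library. The cause was not tested. With a pseudocount of 5 the sign turned for Col6a1 (0.31). With TMM scaling the sign turned for Adamts18 (−0.00423), Mmp12 (−0.00799). With equal column totals the sign turned for Adamts1 (−0.011), Adamts18 (−0.066), Mmp12 (−0.069), Timp3 (−0.044). With edgeR's quasi-likelihood fit the sign turned for Adamts10 (0.10), Col5a1 (−0.87), Col6a1 (1.41), Col6a2 (−0.52), Timp3 (−0.16). With DESeq2 the sign turned for Adamts10 (0.086), Col5a1 (−0.92), Col6a1 (1.44), Col6a2 (−0.51), Timp3 (−0.17). With limma-voom the sign turned for Adamts18 (−0.072), Col1a1 (−0.057), Lox (−0.28), Mmp12 (−0.059). With 1 library left out, the ranges of the log2 fold change that crossed 0 were Adamts1 −0.12 to 0.26, Adamts10 −0.60 to 0.66, Adamts14 −0.089 to 1.79, Adamts18 −0.81 to 0.50, Adamts5 −0.61 to 1.41, Adamts9 −0.064 to 1.09, Adamtsl1 −1.52 to 0.98, Adamtsl4 −0.30 to 1.75, Col11a1 −0.59 to 0.10, Col1a1 −1.23 to 1.01, Col1a2 −2.45 to 0.31, Col22a1 −0.25 to 0.61, Col23a1 −2.55 to 0.87, Col25a1 −0.52 to 0.65, Col26a1 −0.35 to 0.81, Col27a1 −1.80 to 0.44, Col4a1 −0.37 to 0.20, Col4a3bp −0.26 to 0.21, Col4a4 −2.62 to 0.24, Col4a5 −2.88 to 1.06, Col4a6 −1.28 to 0.24, Col5a1 −0.41 to 1.96, Col6a1 −2.50 to 1.64, Col6a3 −2.61 to 0.97, Lox −2.13 to 1.63, Mmp12 −0.21 to 0.43, Mmp15 −0.037 to 1.12, Mmp16 −2.04 to 0.12, Mmp17 −0.19 to 1.37, Mmp2 −0.86 to 2.61, Mmp28 −1.62 to 1.39, Timp3 −0.53 to 0.45. No paired analysis was possible because the diets share only the number 4, which was taken to name different mice.

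With 3 libraries a diet and a median standard error of 0.75 on the log2 scale over all genes, only large differences could pass, and members with means under 50 rest on few reads. The HFD libraries were all deeper than the ND libraries. Amplified reads are not independent molecules.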
